A study of Rattus norvegicus with 4 samples.

Results

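Genes of the Kv1 potassium channels and of their partners at the juxtaparanode were measured by RNA sequencing of lumbar dorsal root ganglia (DRGs) from vehicle-treated and cisplatin-treated rats. The set was defined by 8 gene symbols, namely the alpha subunits Kcna1, Kcna2, Kcna4 and Kcna6, the beta subunits Kcnab1 and Kcnab2, and the adhesion molecules Cntn2 and Cntnap2. Rows with these symbols and a protein-coding biotype were taken from the deposited tables, which gave 7 genes of 22293 protein-coding genes. No such row was matched for Cntnap2. Kcna1 was chosen because its counts were lower after cisplatin, so its values are given as a description and without a test. The other genes were chosen as its relatives and partners.

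The rats were neonatal wild-type Wistar rats. Vehicle-treated rats received phosphate-buffered saline, and cisplatin-treated rats received cisplatin, a platinum-based chemotherapeutic, at 0.3 mg/kg. Injections were intraperitoneal, on postnatal days (P) 14 and 16, and ganglia were taken on P23. The labels instead place the isolation 16 days after treatment. Each group held 2 libraries, each from several pooled ganglia of a different rat. Both sexes were used in the study, and the sex behind each library is not given.

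Kv1 channels are voltage-gated potassium channels that open at small depolarisations and limit repetitive firing. Each channel is built from alpha subunits that form the pore and from cytoplasmic beta subunits that modify gating and trafficking. Along myelinated axons they cluster at the juxtaparanode, a stretch beneath the compact myelin. The paranode separates it from the node of Ranvier. At the juxtaparanode the adhesion molecules contactin 2 (Cntn2) and contactin-associated protein-like 2 (Cntnap2) tie the axon to the Schwann cell and hold the channels in place. In DRGs, Kv1.1 and Kv1.2 are best known from larger sensory neurons with myelinated axons, and Kv1.4 from small neurons with thin fibres.

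Kcna1, Kcna5 and Kcna6 lie in a cluster in the Rnor_6.0 genome of the deposited tables. Kcna1 (ENSRNOG00000019750; chromosome 4, 159190804 to 159192526, minus strand) lies 61.4 kb from Kcna6 (ENSRNOG00000052486; chromosome 4, 159253934 to 159287193, minus strand) and 112 kb from Kcna5. Kcna2 (ENSRNOG00000018285) is at chromosome 2, 209839395 to 209843548, plus strand. Kcna4 (ENSRNOG00000004918) is at chromosome 3, 98297554 to 98300680, plus strand. The gene models of Kcna1 and Kcna4 have lengths of 1723 and 3127 bases, which equal their genomic spans, so neither contains an intron.

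The sequences just upstream of the gene start differed among the alpha subunits. They are shown for Kcna2, whose counts were lower in both cisplatin-treated libraries, and for Kcna6, whose counts overlapped between the groups. RefSeq (build GRCr8) gave an upstream window for 6 of the 8 genes, not for Kcna1 and Cntnap2. The windows hold the 250 bases before the annotated start, 5′ to 3′ on the gene's strand, at chr2:197393280-197393529 (plus strand) for Kcna2 and chr4:161262353-161262602 (minus strand) for Kcna6. Capitals mark the GC box GGGCGG, the CCAAT box CCAAT, the cAMP response element TGACGTCA or the TATA box TATAAA, searched on both strands.
Kcna2: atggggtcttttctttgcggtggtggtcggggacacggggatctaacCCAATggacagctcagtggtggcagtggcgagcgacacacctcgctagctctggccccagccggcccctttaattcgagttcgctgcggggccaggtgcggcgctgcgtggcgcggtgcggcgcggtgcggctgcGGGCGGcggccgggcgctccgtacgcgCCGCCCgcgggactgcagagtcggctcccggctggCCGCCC
Kcna6: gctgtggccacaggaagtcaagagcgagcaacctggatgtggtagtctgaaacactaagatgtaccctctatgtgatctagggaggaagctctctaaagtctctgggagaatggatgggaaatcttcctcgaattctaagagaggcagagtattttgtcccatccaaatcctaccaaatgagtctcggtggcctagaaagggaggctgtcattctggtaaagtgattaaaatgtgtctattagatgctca
The Kcna2 window had a GC content of 72.4%, 33 CpG dinucleotides, 3 GC boxes and 1 CCAAT box. The Kcna6 window had a GC content of 45.6%, 3 CpG dinucleotides and none of these letters. The Kcna4 window was similar to that of Kcna6, with a GC content of 42.8% and 1 CpG dinucleotide. Among the other windows, that of Kcnab2 had a GC content of 65.2% and 24 CpG dinucleotides. The Cntn2 window had 64.4% and 13, and the Kcnab1 window 56.0% and 7. Kcnab2, Cntn2 and Kcnab1 overlapped between the groups, as Kcna6 did. A link between the windows and the levels was not tested. Over 27455 upstream windows of the same length the medians were a GC content of 52% and 6 CpG dinucleotides. Of these windows, 32.4% held a GC box, 34.3% a CCAAT box, 1.70% a cAMP response element and 13.1% a TATA box. These matches describe letters, not binding.

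The libraries held 21384801 to 25618417 counts. Counts of 14719 protein-coding genes entered edgeR's quasi-likelihood test, and a gene was called where it differed by at least 1.5-fold with a p under 0.05 after Benjamini-Hochberg adjustment. In total 1 gene was called (0.00679% of those tested), LOC100911363, which was lower and is named here after its values were seen. Levels below are in CPM or in deposited FPKM, which is also relative to gene length. CPM is a gene's count relative to the library's total over the genes tested, scaled by TMM (trimmed mean of M-values). Skeletal muscle markers stood apart in vehicle replicate 1, at a summed 523 CPM against 16.7 to 55.1 CPM in the other libraries. The share of mitochondrially encoded genes was 1.46% and 2.52% with vehicle and 5.38% and 4.68% with cisplatin. Longer genes had lower fold changes across the genes tested (Spearman's rho = -0.357 between log2 fold change and gene length, a description over genes that share the libraries). The part of these differences in the results below was not tested beyond the correction for gene length and the libraries left out.

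Kcna1 and Kcna2 had lower levels with cisplatin than with vehicle in every library, Kcna4 had slightly higher levels, and Kcna6, Kcnab1, Kcnab2 and Cntn2 overlapped between the groups. Kcna1 stood at 0.351 times and Kcna2 at 0.296 times the vehicle level. Groups that did not overlap were thus seen for 2 of 7 genes in the lower direction, against 21.2% of all genes tested, and for 1 of 7 in the higher direction, against 20.6%. Kcna1 was picked for this difference, and nothing is read from its share. Of the 6 genes other than Kcna1 that were tested, edgeR called 0. Without the adjustment of p, 1 of the 6 passed the same limits, Kcna2, against 7.95% of all genes (5.18% lower and 2.77% higher). DESeq2 called 1 of the 6, Kcna2, against 0.951% of all genes (0.611% lower and 0.34% higher, with 1142 genes given no adjusted p).

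**Figure D1:**
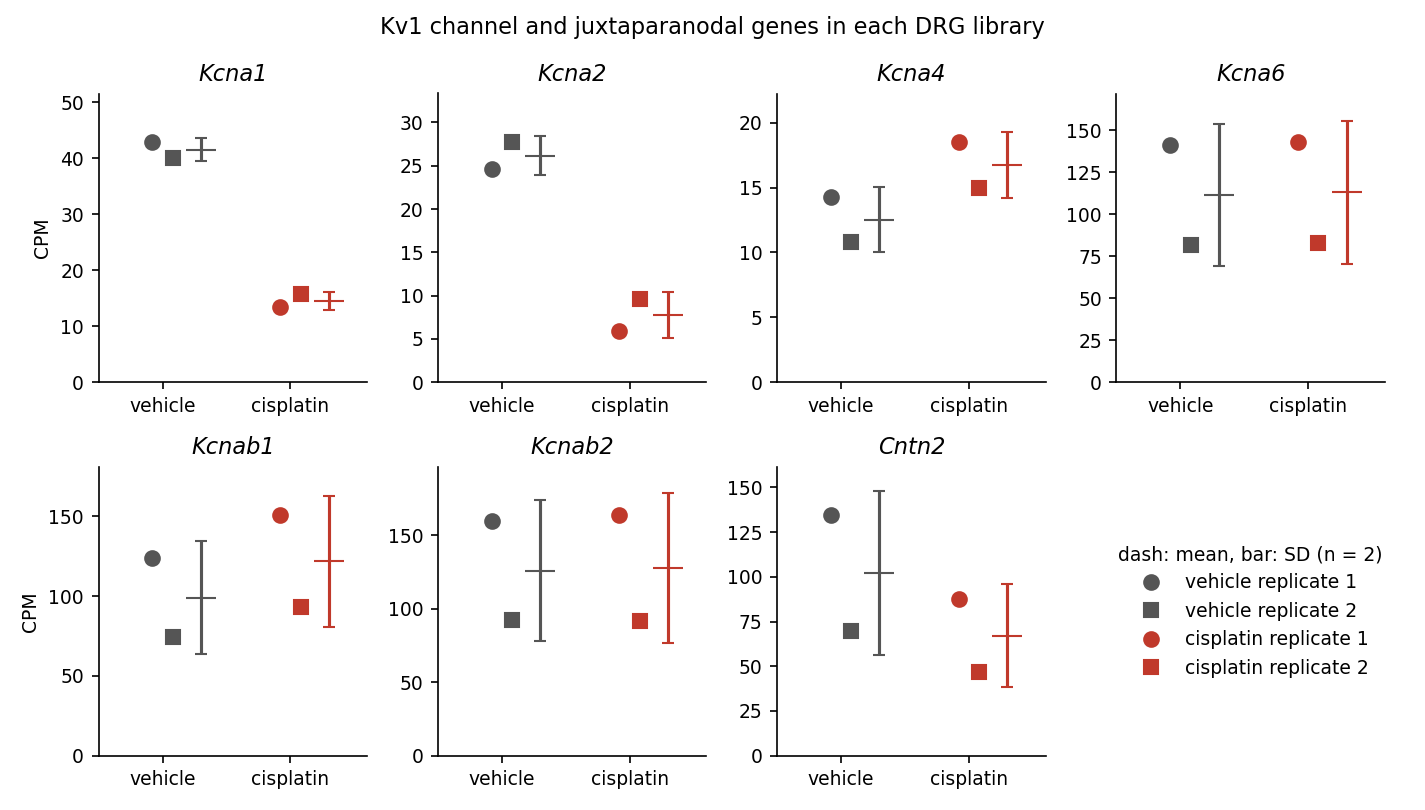
Level of each gene in CPM (scaled by TMM, linear axis from 0) in the 4 libraries, with circles for replicate 1, squares for replicate 2, a dash for the group mean and a bar for the SD (n = 2). Kcna1 and Kcna2 separate the groups with cisplatin-treated libraries below, Kcna4 with cisplatin-treated libraries above, and in the other genes the replicates differ more than the groups.

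Kcna1 encodes Kv1.1, the alpha subunit whose mutations cause a form of episodic ataxia. It had 1075 and 788 counts with vehicle and 341 and 369 counts with cisplatin. These counts corresponded to 42.9 and 40.0 CPM and to 13.4 and 15.7 CPM. The replicates lay close together in each group, with 41.5 ± 2.06 CPM against 14.6 ± 1.599 CPM (SD, n = 2). The log2 fold change was -1.51 ± 0.20 (SE), and leaving out each library in turn gave -1.63 to -1.40. Kcna1 is the gene whose counts defined the set, and no test is given.

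Kcna2 encodes Kv1.2, which assembles with Kv1.1 in juxtaparanodal channels. It had 615 and 547 counts with vehicle and 149 and 227 counts with cisplatin. The cisplatin-treated libraries were both below the vehicle-treated ones, at 7.76 ± 2.68 CPM against 26.2 ± 2.28 CPM (SD, n = 2). Its log2 fold change was -1.76 ± 0.30 (SE), with an unadjusted p of 0.0014 and an adjusted p of 0.522 from edgeR, so that it was not called. DESeq2 gave an adjusted p of 0.000940 and called it. With a library left out the log2 fold change lay between -2.16 (cisplatin replicate 2 left out, edgeR adjusted p = 0.112) and -1.43 (cisplatin replicate 1 left out, edgeR adjusted p = 0.996). With the correction for gene length, Kcna1 stood at -1.53 on the log2 scale and Kcna2 at -1.70 (edgeR adjusted p = 0.666). The same correction moved Cntn2 to -0.33, Kcna6 to 0.38, Kcnab1 to 0.45, Kcna4 to 0.55 and Kcnab2 to 0.03, and 0 of the 6 tested genes were called.

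A short protein-coding model, AC113635.3 (ENSRNOG00000061289; chromosome 2, 209849848 to 209850102, 234 bases, no description), lies 6.30 kb beyond the end of Kcna2 on the same strand and is the next gene there. It had 1227 and 1001 counts with vehicle and 592 and 660 counts with cisplatin, a log2 fold change of -0.96 ± 0.19 (SE, edgeR adjusted p = 0.522). The groups did not overlap for this gene either, where 21.2% of all genes tested were lower without overlap and 20.6% higher. Of the members' other neighbours outside the set, Kcna5 and Ndufa9 were higher and Nphp4 and Nfasc lower without overlap. The other tested neighbours overlapped. Whether the reads of AC113635.3 belong to a longer Kcna2 transcript was not tested.

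Kcna4 encodes Kv1.4, the rapidly inactivating member of the family. It had 358 and 212 counts with vehicle and 471 and 352 counts with cisplatin. Its levels of 14.3 and 10.8 CPM were below the 18.5 and 15.0 CPM of the cisplatin-treated libraries, with a narrow gap. The log2 fold change of 0.42 ± 0.25 (SE, edgeR adjusted p = 0.609) was not past the threshold. Its direction turned to -0.13 when libraries were scaled to pan-neuronal markers, which moved the median of all genes tested to -0.55.

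Kcna6 encodes Kv1.6, a further delayed rectifier of the family. It had 3536 and 1605 counts with vehicle and 3638 and 1950 counts with cisplatin. The libraries split by replicate number, with 141 and 143 CPM in both replicates 1 and 81.5 and 82.9 CPM in both replicates 2, whereas the groups overlapped. The log2 fold change was 0.02 ± 0.38 (SE, edgeR adjusted p = 0.989). Its sign turned to -0.05 with library size alone, so no direction is given.

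The beta subunit genes followed the pattern of Kcna6. Kcnab2 (ENSRNOG00000011550; chromosome 5, 169572517 to 169658875), which encodes Kvβ2, had 160 and 92.2 CPM with vehicle and 164 and 91.5 CPM with cisplatin. Its log2 fold change was 0.02 ± 0.39 (SE, edgeR adjusted p = 0.991) and turned to -0.05 with library size alone. Kcnab1 (ENSRNOG00000056697; chromosome 2, 155718359 to 156009526), which encodes Kvβ1, a subunit that can confer fast inactivation, had 124 and 74.3 CPM with vehicle and 151 and 93.0 CPM with cisplatin. The groups overlapped, with a log2 fold change of 0.30 ± 0.35 (SE, edgeR adjusted p = 0.799). It turned to -0.27 with scaling to pan-neuronal markers, to -0.0247 without vehicle replicate 2 and to -0.0899 without cisplatin replicate 1, so no direction is given. The ratio of Kcnab2 to Kcnab1 in FPKM was 2.26 and 2.18 with vehicle and 1.91 and 1.73 with cisplatin.

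Cntn2 (ENSRNOG00000009033; chromosome 13, 49285310 to 49313940), also known as TAG-1, had 3367 and 1369 counts with vehicle and 2224 and 1099 counts with cisplatin. In CPM this was 135 and 69.5 against 87.5 and 46.7, so that vehicle replicate 2 lay below cisplatin replicate 1. Its log2 fold change was -0.60 ± 0.43 (SE, edgeR adjusted p = 0.659). The value rested on single libraries and was -0.04 without vehicle replicate 1, -0.22 without cisplatin replicate 2, -1.003 without vehicle replicate 2 and -1.13 without cisplatin replicate 1. Cntn2 lies 21.5 kb from Nfasc, the gene of the paranodal and nodal neurofascins.

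No row of the name Cntnap2 was analysed here. The row LOC100364190 (ENSRNOG00000006617; chromosome 4, 75325651 to 77023138, biotype processed transcript) carries the description of the mouse contactin-associated protein-like 2, and it was looked up after the values were seen. It had 1354 and 861 counts with vehicle and 1734 and 1084 counts with cisplatin. In a fit over all biotypes its log2 fold change was 0.23 ± 0.26 (SE, edgeR adjusted p = 0.799), and the groups overlapped.

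**Figure D2:**
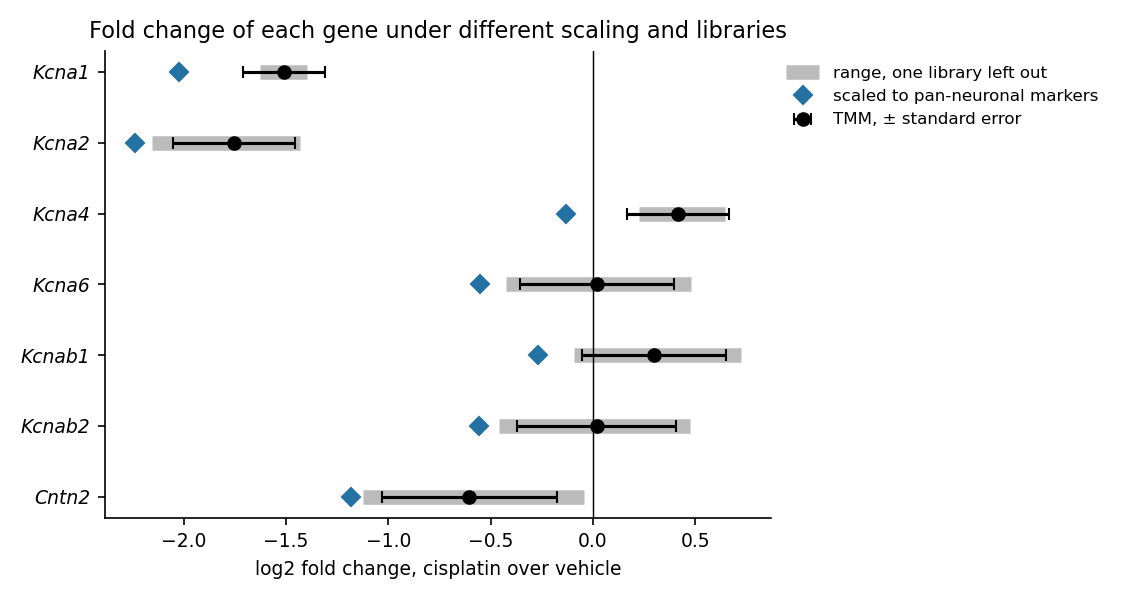
Log2 fold change of cisplatin over vehicle for each gene, with TMM scaling (black points, bars are standard errors), with libraries scaled to pan-neuronal markers (blue diamonds), and the range when each library is left out (grey). Kcna2 lies between -2.24 and -1.43 and Cntn2 between -1.18 and -0.04, Kcna1, chosen for its lower counts, lies between -2.02 and -1.40, Kcna4 turns below 0 with the pan-neuronal scaling, and Kcna6, Kcnab1 and Kcnab2 lie on either side of 0.

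Per gene length, Kcnab2 was the most abundant transcript of the set and Kcna4 or Kcna2 the least. In vehicle-treated rats the order in FPKM was Kcnab2 (61.9 ± 23.9), Kcnab1 (27.7 ± 10.03), Kcna1 (23.5 ± 1.34), Cntn2 (19.8 ± 9.04), Kcna6 (16.2 ± 6.27), Kcna2 (10.95 ± 0.871) and Kcna4 (3.91 ± 0.807), each as mean and SD with n = 2. From Kcnab1 down to Kcna2, each gene lay within 1 SD of a neighbour in this order, whereas Kcnab2 stood above and Kcna4 below the rest. In cisplatin-treated rats the order was Kcnab2 (62.9 ± 25.1), Kcnab1 (34.2 ± 11.4), Kcna6 (16.5 ± 6.21), Cntn2 (13.0 ± 5.596), Kcna1 (8.27 ± 0.918), Kcna4 (5.24 ± 0.786) and Kcna2 (3.26 ± 1.13). From Kcna6 down to Kcna1, neighbours in this order again lay within 1 SD. Kcna1 moved from rank 3 to rank 5 and Kcna2 from rank 6 to rank 7 of 7, as a description. These levels depend on the lengths of the gene models, from 1723 bases for Kcna1 to 6696 for Kcna6. Reads of AC113635.3 are not counted in Kcna2. Whether the models are complete was not tested.

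The make-up of the alpha subunit transcripts of the set differed accordingly. Of the summed FPKM of Kcna1, Kcna2, Kcna4 and Kcna6, the share of Kcna1 and Kcna2 together was 58.0% and 69.2% with vehicle and 27.4% and 43.6% with cisplatin. Kcna6 alone held 34.5% and 24.0% against 56.8% and 40.7%. The sum itself was 59.9 and 49.2 FPKM with vehicle and 36.8 and 29.8 FPKM with cisplatin. The FPKM of Kcnab1 and Kcnab2 over that sum was 1.90 and 1.33 with vehicle and 3.34 and 2.39 with cisplatin. Kcna5 lay outside the sum, with 4.11 and 3.65 FPKM with vehicle and 5.72 and 4.37 FPKM with cisplatin. Like the FPKM order, the shares depend on the lengths of the gene models. The shares and ratios include Kcna1, whose counts chose the set, and no test is given for them.

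**Figure D3:**
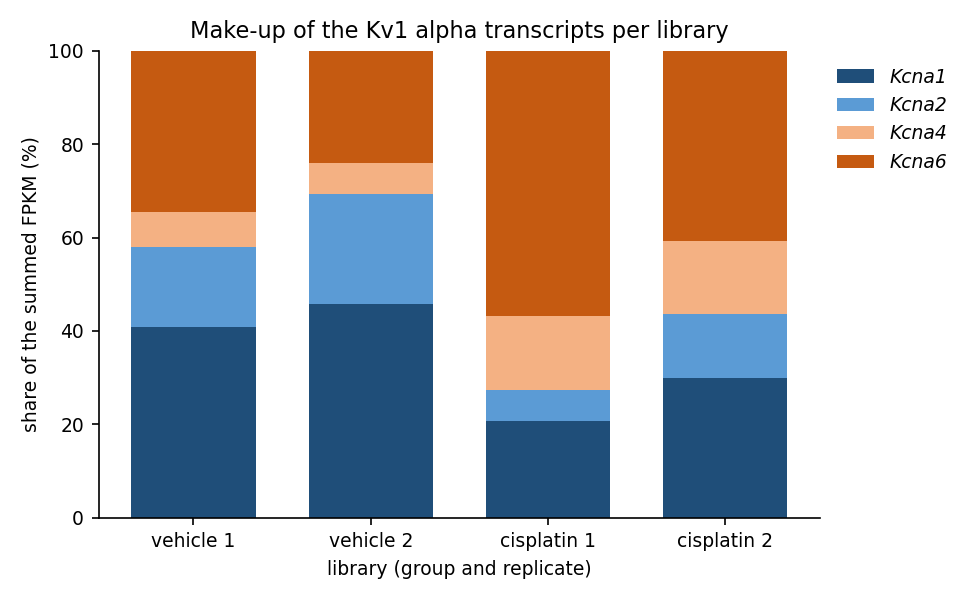
Share of the summed FPKM of the 4 alpha subunit genes held by each gene, in percent, in each library. Kcna1 and Kcna2 (blue) together hold 58.0% and 69.2% with vehicle and 27.4% and 43.6% with cisplatin, with Kcna6 and Kcna4 (orange) holding the rest.

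The genes of the set also differed in how they varied between replicates within each treatment. Kcna1 was chosen from the counts of these same libraries, so its ratios are not independent of that choice. Replicates 2 held more transcripts of myelinating Schwann cells than replicates 1, by 2.58 times in vehicle-treated and 2.88 times in cisplatin-treated rats, and fewer pan-neuronal transcripts, at 0.821 and 0.681 times. Cntn2, Kcna6, Kcnab1 and Kcnab2 were lower in replicate 2, by log2 ratios of -0.95 to -0.74 in vehicle-treated and -0.91 to -0.70 in cisplatin-treated rats. Kcna4 had smaller log2 ratios of -0.41 and -0.31. Kcna1 had log2 ratios of -0.10 and 0.22, and Kcna2 of 0.18 and 0.72. Single markers within a list also varied. The large-diameter neuron marker Ntrk3 had 7.71 and 9.80 CPM with vehicle and 5.47 and 7.91 CPM with cisplatin. Ntrk3 was higher in replicate 2 of each group, whereas all other markers of its list were lower there. In replicates 1 and 2 that list summed to 7883 and 5755 CPM with vehicle and to 8442 and 6157 CPM with cisplatin. With 1 library on each side of each ratio, these are values without a test.

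**Figure D4:**
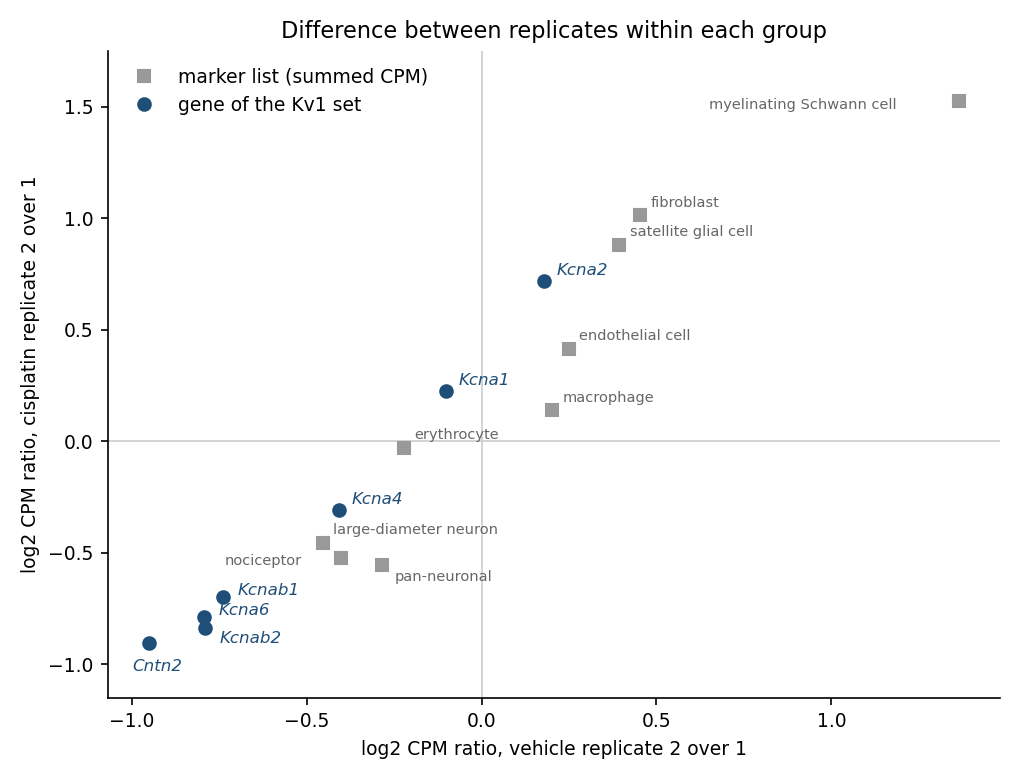
Log2 ratio of CPM in replicate 2 over replicate 1, in vehicle-treated rats on the horizontal and cisplatin-treated rats on the vertical axis, for the genes of the set (blue circles) and the summed CPM of marker lists (grey squares; skeletal muscle and paranode are left out). Cntn2, Kcna6, Kcnab1 and Kcnab2 lie at the lower left beyond the neuronal lists, whereas Kcna2 lies among the non-neuronal lists and Kcna1 near 0.

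The summed level of pan-neuronal markers was higher in both cisplatin-treated libraries than in either vehicle-treated library, and that of the other neuronal lists overlapped. In bulk tissue, fewer cells of a type and less RNA per cell cannot be told apart. The 8 pan-neuronal markers summed to 5871 to 7155 CPM with vehicle and 7866 to 11544 CPM with cisplatin, and 8 of 8 were above 0 in log2 fold change (median 0.42, from Rbfox3 at 0.20 to Uchl1 at 0.77). The 6 markers of large-diameter neurons summed to 5755 to 7883 CPM and 6157 to 8442 CPM, with a median of 0.10 and 5 of 6 above 0, from Ntrk3 at -0.39 to Spp1 at 0.38. The 7 nociceptor markers summed to 1530 to 2021 CPM and 1931 to 2778 CPM (median 0.43, 7 of 7 above 0). The median over all genes tested was -0.01. Relative to pan-neuronal counts, Kcna1 had 6.002 and 6.82 counts per 1000 with vehicle and 1.16 and 1.99 with cisplatin. Kcna2 had 3.43 and 4.73 against 0.508 and 1.23. On this scale Cntn2 (18.8 and 11.8 against 7.58 and 5.94), Kcna6 (19.7 and 13.9 against 12.4 and 10.5) and Kcnab2 (22.3 and 15.7 against 14.2 and 11.6) were also below the vehicle-treated libraries without overlap, and Kcna4 and Kcnab1 overlapped. These 5 of 7 genes compare with 53.4% of all genes that were lower without overlap on this scale, and 1.47% that were higher. Kcna1 was picked for its lower counts in these libraries. Nothing is read from its place here or on the scale of the large-diameter neuron markers below. Scaling all libraries to the pan-neuronal markers moved the median of all genes tested to -0.55 on the log2 scale, and the values on this scale include that shift. Kcna1 at -2.02, Kcna2 at -2.24 and Cntn2 at -1.18 were below it. Kcna6 at -0.55 equalled it, and Kcnab2 at -0.56 lay close to it. Kcnab1 at -0.27 and Kcna4 at -0.13 were above it. In the sum of the large-diameter neuron markers, Nefh alone held 6986 of 7883 CPM in vehicle replicate 1 and 7356 of 8442 CPM in cisplatin replicate 1. Values relative to this sum are thus mostly relative to Nefh. Relative to the counts of the large-diameter neuron markers, the cisplatin mean was 0.334 times the vehicle mean for Kcna1, 0.285 for Kcna2 and 0.616 for Cntn2. The groups did not overlap for these genes, where 16.2% of all genes were lower without overlap. For Kcna4 the cisplatin mean was 1.26 times the vehicle mean, without overlap, where 10.5% of all genes were higher without overlap. With overlap, it was 1.15 times for Kcnab1, 0.948 times for Kcna6 and 0.944 times for Kcnab2.

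Markers of myelinating Schwann cells differed more between replicates than between treatments. The 6 markers of myelinating Schwann cells summed to 61626 to 158823 CPM with vehicle and 48159 to 138561 CPM with cisplatin (median log2 fold change -0.51, 6 of 6 below 0). Satellite glial cell markers had a median of -0.17 (5 of 6 below 0), with summed CPM of 1920 to 2522 and 1195 to 2200. Fibroblast markers had a median of -0.70 (5 of 6 below 0), with summed CPM of 8962 to 12271 and 4367 to 8806, which did not overlap. Macrophage markers had a median of -0.12, with 41.3 to 47.6 CPM and 39.3 to 43.2 CPM. Endothelial cell markers summed to 67.6 to 80.3 CPM and 58.3 to 77.7 CPM (median -0.23), with Cldn5 at 0 in all libraries, and erythrocyte markers to 1085 to 1265 CPM and 1149 to 1172 CPM (median -0.02). The 4 skeletal muscle markers had a median of -3.26, with vehicle replicate 1 apart from the other libraries as given above. The part of these cell types in the Kcna1 and Kcna2 values was not tested.

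Of 18 other genes of the Kv1 family and of the juxtaparanodal scaffold, 16 had a row and were tested, all but Kcna3 and Epb41l1. edgeR called 0 of the 16, against 0.00679% of all genes tested, and 0 without the adjustment of p, against 7.95%. DESeq2 called 0, against 0.951%. At these shares, few or no calls among 16 genes are no result about the list. Their median log2 fold change was -0.28, against -0.01 for all genes tested, with 4 above and 12 below 0. The groups did not overlap for 6 of 16, against 41.8% of all genes tested, with 3 higher (Kcna5, Lgi1 and Epb41l3) and 3 lower (Kcna10, Adam23 and Dlg3).

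Among the other Kv1 alpha subunits, Kcna5 (Kv1.5), the neighbour of Kcna1, had 190 and 134 counts with vehicle and 269 and 190 with cisplatin, a log2 fold change of 0.37 ± 0.27 (SE). Kcna7 and Kcna10 had at most 25 counts in any library. Kcnab3 (Kvβ3) had 71 and 41 counts with vehicle and 66 and 30 counts with cisplatin. Among the secreted LGI proteins and their ADAM receptors, Lgi1 had 1488 and 1208 counts with vehicle and 2639 and 1721 counts with cisplatin (log2 fold change 0.55, edgeR adjusted p = 0.532). Adam23, a receptor for LGI proteins, had 3625 and 1811 counts with vehicle and 2060 and 1755 counts with cisplatin (log2 fold change -0.61, edgeR adjusted p = 0.538). Both genes separated the groups without passing the threshold. Adam22 had a log2 fold change of -0.28, Lgi2 of -0.13, Lgi3 of 0.35 and Lgi4 of -0.21, and all overlapped between the groups.

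The membrane-associated guanylate kinases bind the C-termini of Kv1 subunits. All 4 stood slightly below 0, with Dlg1 (SAP97) at -0.31, Dlg2 (PSD-93) at -0.28, Dlg3 (SAP102) at -0.37 and Dlg4 (PSD-95) at -0.06, and none was called by edgeR. Epb41l3, whose protein 4.1B links the Cntnap2 protein to the axonal cytoskeleton, had 15281 and 10777 counts with vehicle and 19349 and 14573 counts with cisplatin (log2 fold change 0.25, edgeR adjusted p = 0.761). Epb41l2, whose protein 4.1G is found in Schwann cells, stood at -0.58 with overlapping groups. At the paranode, the neighbouring domain, Cntn1 had a log2 fold change of -0.12, Cntnap1 of -0.15 and Nfasc of -0.62, with edgeR adjusted p from 0.567 (Nfasc) to 0.916 (Cntnap1). The groups did not overlap for Nfasc.

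**Figure D5:**
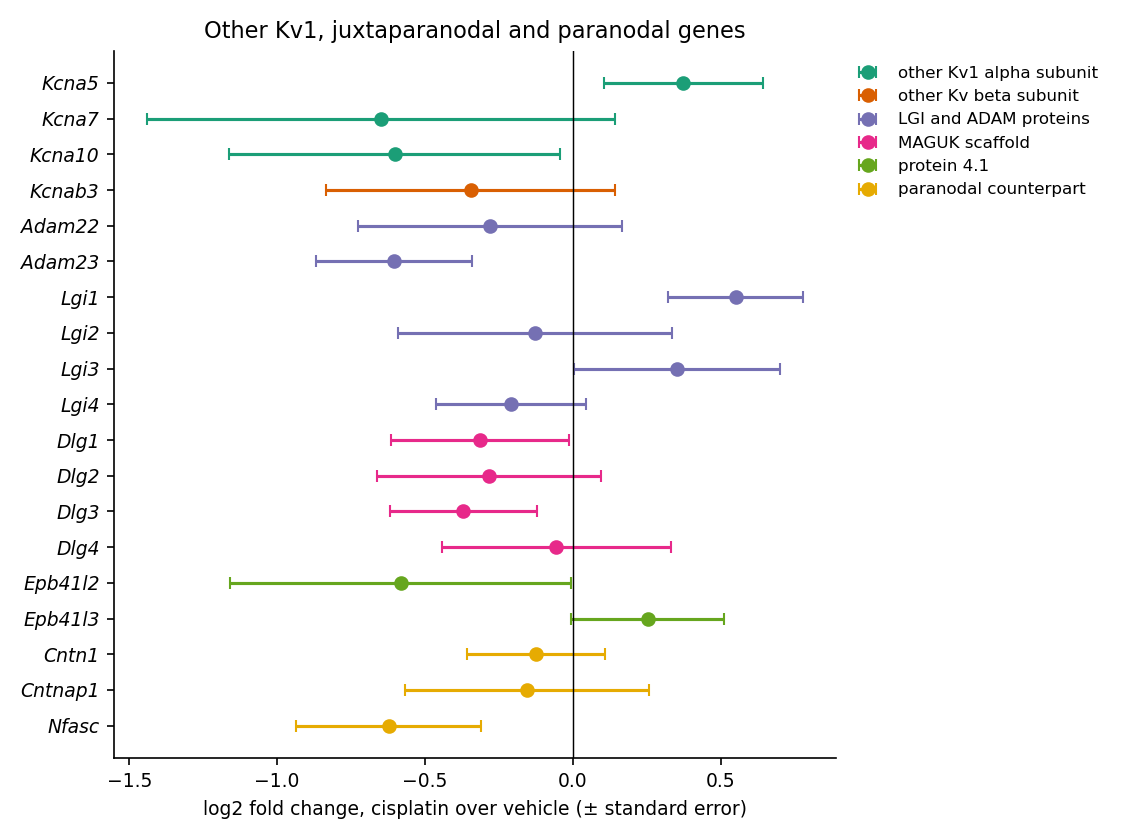
Log2 fold change of cisplatin over vehicle with its standard error for 16 other Kv1 and juxtaparanodal genes and 3 paranodal genes, coloured by role. Values range from -0.65 (Kcna7) to 0.55 (Lgi1), and none was called by edgeR.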

How the data were processed

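Poly(A)-selected RNA was sequenced as paired reads. The authors mapped the reads to Ensembl Rnor_6.0 with HISAT2 2.0.5 and assembled transcripts with StringTie 1.3.3b. The submitters' processing notes also list featureCounts 1.5.0-p3, and the strand setting and the treatment of reads shared by similar genes are not given in the sources used here. The authors deposited raw counts per gene and FPKM values, which are those counts divided by gene length and by a constant for each library.

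Samples were grouped by the treatment in their labels. The 14719 protein-coding genes kept by edgeR's filterByExpr were normalised with TMM and fitted with edgeR 4.0.16 (glmQLFit and glmQLFTest, R 4.3.3) without a block. Standard errors came from the log2 fold change and its F statistic. Alternatives used DESeq2 1.42.0, limma 3.58.1 on log2(FPKM + 1) and log2(FPKM + 0.1), other scalings and filters, a lowess correction for gene length (span 0.3), a replicate block and libraries left out. Scripts were tested on simulated data.

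The smallest exact permutation p for 2 against 2 libraries is 0.333. Titles of the labels number the rats, but nothing says whether litters or batches were shared, so p-values measure only the spread between these libraries. Intervals of counting error are not given. A count of 3 corresponds to 0.118 to 0.152 CPM. The genes and lists were chosen with earlier results of these data known. Named were the genes of the set, of the family and scaffold list, the markers at either end of a list, the neighbours in the genome and the 3 genes most like Kcna1. Upstream sequences were matched by symbol to RefSeq (GRCr8).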

Additional observations from a re-analysis of the deposited data

How the results depend on the processing

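Over the 17 alternatives that refitted the fold change, Kcna2 had log2 fold changes from -2.24 to -1.43 and Cntn2 from -1.18 to -0.04. Those of Kcna1 were -2.02 to -1.40, a description, since its lower counts chose it. Of the 6 tested genes of the set, DESeq2 called 1 (Kcna2), unadjusted p 1 (Kcna2), the replicate block 2 (Kcna2, adjusted p = 0.00089 from edgeR, and Cntn2, 0.00807) and the block with the gene length correction 1 (Kcna2), each lower, and the other alternatives 0. Of the 16 family and scaffold genes, the block called 1 (Epb41l2, lower) and the block with the length correction 1 (Lgi1, higher), and the others 0. Among all genes tested, 1 was called, against 3 with scaling to the pan-neuronal markers, 4 without the filter, 2 with a minimum of 10 counts per library, 140 with DESeq2 (50 higher, 90 lower), 1170 with unadjusted p (407 and 763), 4 with limma on log2(FPKM + 1), 2 on log2(FPKM + 0.1), 1532 with the replicate block (494 and 1038) and 1043 when the length correction was added to it (407 and 636). Leaving out a library gave 0 (without cisplatin replicate 1), 3 (without vehicle replicate 2), 5 (without vehicle replicate 1) and 7 calls (without cisplatin replicate 2) among all genes, and 0 among the 6 and the 16. The cause of these differences was not tested. The block rests on the replicate numbers of the titles, which mark different rats. The deposited column names number the cisplatin-treated libraries 4 and 6, so they do not share numbers with the vehicle-treated ones, 1 and 2. Same-numbered libraries deviated together across genes (a description, with r = 0.444 by Pearson and rho = 0.567 by Spearman), but 2 pairs do not show that the numbers pair the samples.

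Directions turned for 4 genes. Scaling to the pan-neuronal markers gave log2 fold changes of -0.13 for Kcna4, -0.55 for Kcna6, -0.27 for Kcnab1 and -0.56 for Kcnab2. That scaling also moved the median of all genes tested to -0.55. With library size alone the log2 fold change was -0.0487 for Kcna6 and -0.0497 for Kcnab2. With a library left out it ranged from -0.42 to 0.48 for Kcna6, from -0.0899 to 0.72 for Kcnab1 and from -0.46 to 0.48 for Kcnab2. The turned values without vehicle replicate 2 and without cisplatin replicate 1 were -0.32 and -0.42 for Kcna6, -0.0247 and -0.0899 for Kcnab1, and -0.32 and -0.46 for Kcnab2. The order of the levels was the same with CPM per kb as with FPKM. A left-out library leaves its group with a single library, whose spread is taken from the other group.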

Other observations

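The genes whose profile over the 4 libraries was most like that of Kcna1 were AC118954.1, Cep295nl and Ago2, among 14718 other genes tested. Likeness was the root-mean-square difference of log2 CPM (prior count 2) after centring each gene on its own mean, and it was 0.0576, 0.0715 and 0.0924. Ago2 encodes Argonaute 2, the effector protein of small RNA silencing, and had 156 and 112 counts with vehicle and 51 and 61 counts with cisplatin. AC118954.1 had 33 and 24 against 10 and 11 counts, and Cep295nl 15 and 12 against 4 and 4, so the last 2 rest on few reads. These 3 genes were selected by their likeness over 4 libraries, and no test is given.

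Within the set, Kcna2 had the profile nearest to that of Kcna1, with a difference of 0.241 and rank 108 of 14718. Cntn2 followed at 0.677 (rank 3908). Kcna6, Kcnab2, Kcnab1 and Kcna4 lay at 0.880, 0.883, 0.989 and 0.990, with ranks of 9748 to 12212. Kcna1 was chosen for its lower counts with cisplatin, so these ranks in part restate the fold changes, and no test is given. The ratio of Kcna1 to Kcna2 in FPKM was 2.36 and 1.95 with vehicle and 3.09 and 2.20 with cisplatin.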
